A study of Bos taurus with 16 samples.

Results

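The master regulators of helper T cell lineages were examined in bovine whole blood: TBX21 (T-bet, Th1), STAT4 (Th1), GATA3 (Th2), STAT6 (Th2), STAT3 (Th17), FOXP3 (regulatory T cells), BCL6 (follicular helper T cells) and TNFRSF4 (OX40, a co-stimulatory receptor of activated T cells). The members were all probes that carry one of these 8 gene symbols in the authors' averages table, which gave 17 of 43653 probes (8 of 16966 gene symbols). Blood came from lactating Holstein Friesian cows, and each group was 1 pool of RNA hybridised to 4 single-colour (Cy3) oligonucleotide arrays, 16 in all. The LPS group was day 60 blood of probiotic cows to which lipopolysaccharide, a bacterial cell wall component, had been added at 100 ng/ml as a positive control. The probiotic group was day 60 blood of cows given an oral pack of Saccharomyces cerevisiae yeast culture with fermentation products of Enterococcus faecium, Lactobacillus acidophilus, Aspergillus oryzae and Bacillus subtilis. The untreated group was day 60 blood of cows given water only. The day 0 group was blood drawn before supplementation, and its labels name the probiotic arm. The series text has all 10 cows sampled at day 0, and whether the day 0 pool held 5 or 10 cows is not given in the sources used here. Before RNA extraction the blood of all groups was incubated for 30 min at 37 °C under 5% CO2, and each arm held 5 cows. The 4 arrays of a group repeat 1 pool, so every p-value below measures the spread between arrays and not between cows.

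Naive CD4 T cells take on different fates according to the cytokines they meet. IL-12 acts through STAT4 and interferon-gamma raises TBX21 for the Th1 fate, IL-4 acts through STAT6 to raise GATA3 for the Th2 fate, IL-6 and IL-23 act through STAT3 for the Th17 fate, and FOXP3 sets the regulatory fate. BCL6 drives follicular helper cells and represses the other programmes, while TNFRSF4 is a receptor that prolongs the survival of activated T cells. Most of these genes are not confined to helper T cells: TBX21 is also expressed in natural killer cells, BCL6 in B cells, and the STAT proteins in most leukocytes, so in whole blood fewer cells of a type and less RNA per cell cannot be told apart.

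The probes are 60 bases long as deposited, and the 7 that could be tested are shown because each result below belongs to its probe and not to the gene as a whole. The TBX21 probe is given whole because it has an open reading frame that ends in the stop codon TGA, in capitals, while of the others the first 30 bases are given.
TBX21 A_73_P065646: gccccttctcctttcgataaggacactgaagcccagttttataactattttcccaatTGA
GATA3 A_73_106801: tctgtgttctcactccccgaatctggatcc
GATA3 A_73_P245891: gcttcccttttacaatttggcccgtttttg
STAT3 A_73_104691: cacagggtggtttgtgagatgctgtcctgg
STAT3 A_73_P276031: ttatcccagttccttggagatttcctgctg
FOXP3 A_73_P078451: atgcctcagcttcgactgcagacagagccc
TNFRSF4 A_73_P031996: tctgctacgtatgctgtgcatactccctgc
These 7 probes hold between 25 (TBX21 and GATA3 A_73_P245891) and 33 (TNFRSF4) G or C bases of 60. A pair of untested STAT3 probes, A_73_P102211 and A_73_P411291, share 54 bases with 3 differences, which lie in this window with the differing bases in capitals.
A_73_P102211: gcaaataaGaatacacgctccacaCctgaG
A_73_P411291: gcaaataaAaatacacgctccacaActgaA

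Of the 8 regulators, 5 had a probe that could be measured in blood. Of the 272 member spots (17 probes on 16 arrays), 98 were well above background by the scanner software, with 30 of 68 on the LPS arrays, 27 on the probiotic, 25 on the untreated and 16 on the day 0 arrays; the probiotic count includes a STAT4 spot marked as an outlier. These are 44.1%, 39.7%, 36.8% and 23.5% of the member spots, each above the range of all spots on the same group's arrays, given below. The TBX21 probe A_73_P065646 alone was above background on every array. Of the 17 probes, 7 were above background on all 4 arrays of at least 1 group and were tested; they belong to TBX21, GATA3, FOXP3, STAT3 and TNFRSF4. BCL6, STAT4 and STAT6 had no probe that could be tested. The other 10 probes were above background on at most 2 arrays, and 3 of them (FOXP3 A_73_110589, BCL6 A_73_P296401 and the STAT6 probe) on none. Not being above background gives only a bound on a probe's signal.

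**Figure D1:**
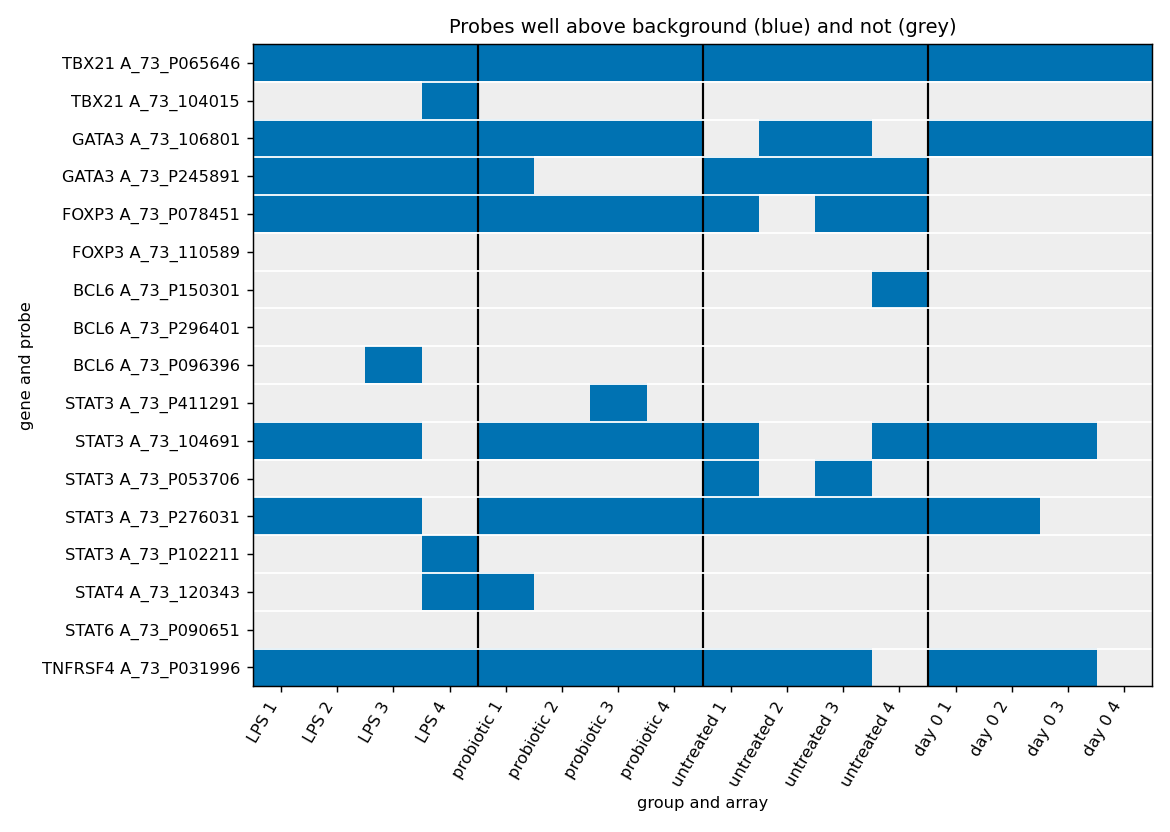
Each row is 1 of the 17 member probes and each column 1 of the 16 arrays, grouped as LPS, probiotic, untreated and day 0. Blue marks spots well above background, 98 of 272 in all; the STAT6 row is empty and the row of TBX21 A_73_P065646 is full.

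The arrays differed in overall brightness, and this touches every comparison with the untreated or day 0 group. The share of spots well above background was 22.5% to 42.1% on the LPS arrays, 26.4% to 37.1% on the probiotic arrays, 12% to 17.9% on the untreated arrays and 8.26% to 23.0% on the day 0 arrays. The value used to scale each array (the 75th percentile of net signal over the 671 probes above background everywhere) was 1797 to 11190 scanner units on the LPS, 7120 to 11944 on the probiotic, 1076 to 1380 on the untreated and 777 to 3025 on the day 0 arrays. The brightest spike-in control read 100 to 136 scanner units on the untreated arrays, 136 on probiotic replicate 4 and 249 on day 0 replicate 4, while the highest reading on the LPS arrays was 119174. Because the arrays of a group shared a slide that held no other group, differences between slides and between groups cannot be told apart. Only the LPS and probiotic groups shared a scan day.

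TBX21, the transcription factor that directs the Th1 fate and interferon-gamma production, was seen on every array. Its net signal by probe A_73_P065646 was 698, 670, 623 and 417 scanner units on LPS replicates 1 to 4, and 809, 798, 759 and 786 on the probiotic arrays. It was 592, 621, 815 and 918 on the untreated arrays and 212, 189, 226 and 127 on the day 0 arrays. Before scaling, the probiotic and untreated signals therefore overlapped, and the day 0 arrays were below all 12 others. After scaling, the mean log2 level was -3.53 ± 0.96 (SD, n = 4) with LPS, -3.67 ± 0.33 in the probiotic group, -0.74 ± 0.33 in the untreated group and -3.46 ± 0.59 at day 0. The second TBX21 probe, A_73_104015, was above background on LPS replicate 4 alone, at 61.1 scanner units.

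STAT4, the signal transducer of IL-12, had 1 probe, which was above background on 2 arrays. It read 98914 scanner units on probiotic replicate 1, a spot that the software marked as an outlier and that was left out of the fit, and 41.6 on LPS replicate 4. On the other 14 arrays the probe lay between -42.5 and 11.3, so the very bright spot was not repeated in the same pool.

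GATA3, the factor that directs the Th2 fate, had 2 measurable probes that behaved differently. Probe A_73_106801 read 2853, 2827, 2681 and 597 on the LPS arrays, 2974, 2715, 2896 and 2571 on the probiotic arrays, 45.7, 122, 124 and 54.3 on the untreated arrays and 522, 532, 455 and 99.2 on the day 0 arrays. Probe A_73_P245891 read 348, 139, 188 and 46.3 on the LPS arrays, 219, 21.7, 36.6 and 7.95 on the probiotic arrays, 119, 358, 274 and 188 on the untreated arrays, and between -8.50 and 0.07 on the day 0 arrays. By the first probe the untreated arrays (above background on 2 of 4) were dimmer than every other array but day 0 replicate 4, and by the second they were brighter than 3 of the 4 probiotic arrays and all day 0 arrays.

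STAT6, which carries the IL-4 signal, was never above background; its single probe lay between -11.9 and 63.5 scanner units over the 16 arrays.

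STAT3, which carries IL-6 and IL-23 signals for the Th17 fate, was measured by 2 of its 5 probes. Probe A_73_104691 read 1212, 1596, 1048 and 29.1 on the LPS arrays, 1611, 1807, 1563 and 787 on the probiotic arrays, 287, -5.57, -13.2 and 516 on the untreated arrays and 492, 461, 437 and 5.83 on the day 0 arrays. Probe A_73_P276031 read 228, 249, 247 and 7.93 on the LPS arrays, 323, 311, 298 and 276 on the probiotic arrays, 142, 155, 174 and 148 on the untreated arrays and 40.8, 39.6, 31.6 and -11.7 on the day 0 arrays. LPS replicate 4 and day 0 replicate 4 were the dimmest of their groups by both probes. Another STAT3 probe, A_73_P053706, was above background only on untreated replicates 1 and 3, at 636 and 96.6.

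FOXP3, the factor of regulatory T cells, was dim where it was seen at all. Probe A_73_P078451 read 197, 50.3, 38.5 and 52.7 on the LPS arrays, 51.3, 59.4, 51.8 and 51.9 on the probiotic arrays, 120, 66.4, 151 and 166 on the untreated arrays and 19.4, 22.5, 16.3 and -4.75 on the day 0 arrays. It was above background on all LPS and probiotic arrays, on 3 of 4 untreated arrays and on no day 0 array. LPS replicate 1 stood above the other 3 arrays of its group.

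BCL6, the follicular helper factor, had 3 probes, and the highest reading of any was 142 on untreated replicate 4 (A_73_P150301), next to 71.4 on LPS replicate 3 (A_73_P096396). These were the only BCL6 spots above background.

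TNFRSF4, the OX40 receptor, read 1041, 946, 888 and 43.2 on the LPS arrays, 1434, 1366, 1339 and 1184 on the probiotic arrays, 206, 99, 100 and 115 on the untreated arrays and 185, 188, 144 and 20.1 on the day 0 arrays. Before scaling, all 4 probiotic arrays were above all untreated and day 0 arrays, and those last groups overlapped.

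**Figure D2:**
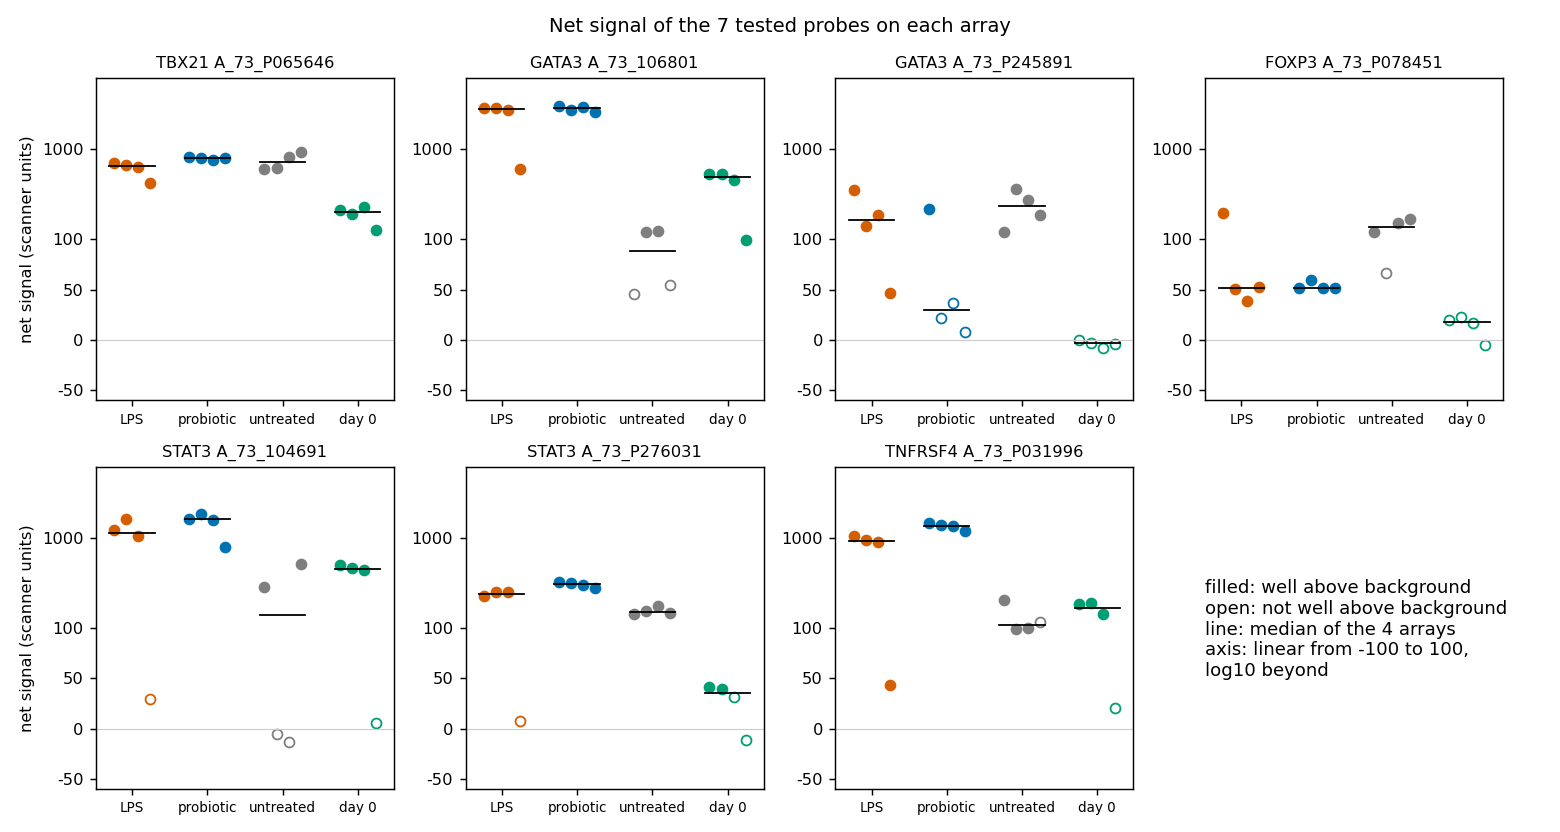
Net signal in scanner units of the 7 tested member probes (panels) on each array, with groups along the horizontal axis as LPS, probiotic, untreated and day 0; the vertical axis is linear up to 100 and log10 beyond. Filled points are well above background, open points are not, and the line is the median of 4 arrays; TBX21 is filled on all 16 arrays, and the probes of GATA3 order the untreated arrays differently.

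Probiotic against untreated blood at day 60 asks how the supplement went with expression in blood. TBX21, FOXP3, GATA3 by probe A_73_P245891 and STAT3 by probe A_73_P276031 were lower in the probiotic pool after scaling, and GATA3 by probe A_73_106801 was higher. Of the 7 probes, 1 passed as higher, 4 as lower and 2 did not pass, where passing means limma's adjusted p under 0.05 and at least a 2-fold difference; 59.2% of all 12197 probes tested passed in this comparison (23.7% higher, 35.5% lower). The groups did not overlap for 5 of the 7 probes, and for 61.9% of all probes. The members' median log2 difference was -2.09, beside -0.31 over all probes. The members' 5 calls of 7 stand beside that share of all probes.

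For the Th1 factor TBX21 the log2 difference was -2.93 ± 0.46 (SE of the fit, n = 4 arrays per group; limma adjusted p = 6.84e-05), although the unscaled group means, 788 scanner units in the probiotic and 736 in the untreated pool, had a ratio of 1.07. The difference was thus present only relative to the rest of each array; it remained below 0 under every alternative run, from -5.85 with cyclic loess to -0.17 in the authors' deposited table, and no longer passed when scaled to the median (adjusted p = 0.0720). For the regulatory factor FOXP3 it was -4.20 ± 0.60 (adjusted p = 3.29e-05), with unscaled means of 53.6 and 126 scanner units in the probiotic and untreated pools. FOXP3 was lower on both scales and under every alternative run, from -5.18 to -0.88, though untreated replicate 2 (66.4 scanner units) was not above background. The 3 member probes never above background also had lower scaled means in the probiotic than in the untreated pool. These were -8.77 and -4.82 for STAT6, -8.52 and -5.63 for FOXP3 A_73_110589, and -10.0 and -5.87 for BCL6 A_73_P296401. How far the floor of the untreated arrays enters the FOXP3 difference was not tested.

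The GATA3 probes passed in opposite directions. Probe A_73_106801 was higher by 2.10 ± 0.36 (adjusted p = 0.000140; unscaled ratio 32.3), but its sign turned with cyclic loess (-1.0) and in the authors' deposited table (-0.35), and it did not pass once the median of each block of array rows was subtracted (0.57, adjusted p = 0.316). Probe A_73_P245891 was lower by 5.65 ± 0.72 on the log2 scale (a difference of -5.65; adjusted p = 1.21e-05; unscaled ratio 0.303), and lower under every alternative; it was above background on 1 of 4 probiotic arrays. Without that array no probiotic array was above background, and the fitted difference of -6.44 rests on background values. On the other 3 probiotic arrays alone, the probe was at least 37.5-fold lower than in the untreated group. The array left out stood at a scaled log2 level of -5.77, beside an untreated mean of -2.48. Averaging both probes gave -1.77. The probes lay far apart on the slide, in array rows 5 and 399; median differences over all probes ranged from -3.53 to 0.72 across 10 blocks of rows, and the part of that pattern in the GATA3 values was not tested beyond the row-block alternative above.

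STAT3 by probe A_73_P276031 had a log2 difference of -2.09 ± 0.46 (adjusted p = 0.00112), while its unscaled signal was 1.95 times as high in the probiotic as in the untreated pool. It stayed below 0 under every alternative run, but did not pass under 6 of them, among them scaling to the 75th percentile of all probes (-0.23, adjusted p = 0.75). STAT3 by probe A_73_104691 did not pass (1.04 ± 1.18, adjusted p = 0.460), with 2 untreated arrays above background and 2 below 0. TNFRSF4 did not pass either (0.37 ± 0.48, adjusted p = 0.523), though its unscaled signal was 10.2 times as high in the probiotic pool. Its value depended on the scaling: it passed as higher when scaled to the 75th percentile of all probes (2.23) or by quantiles (1.31), and as lower with cyclic loess (-1.95).

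**Figure D3:**
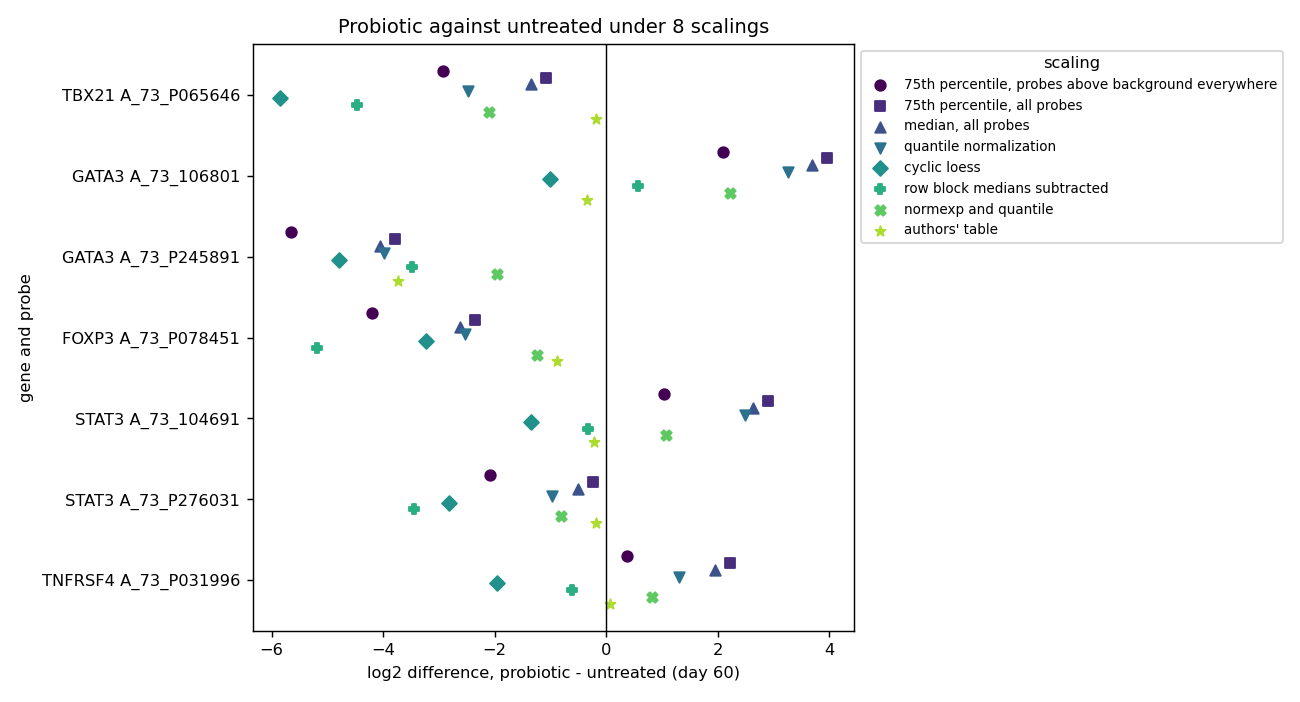
Log2 difference of probiotic minus untreated at day 60 (horizontal axis) for the 7 tested probes (rows), with 1 symbol for each of 8 ways of scaling the arrays. TBX21, FOXP3, GATA3 A_73_P245891 and STAT3 A_73_P276031 stay left of 0 throughout, while GATA3 A_73_106801, STAT3 A_73_104691 and TNFRSF4 lie on both sides.

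Probiotic blood at day 60 against day 0 asks what differed over the supplementation period. None of the 7 probes passed in limma (adjusted p from 0.0708 to 0.969; 3 had an unadjusted p under 0.05, as did 27.5% of all probes), where 11% of all probes did (7.14% higher, 3.89% lower) and the median over all probes was 0.62. The largest member differences were 1.43 ± 0.48 for TNFRSF4 and 1.29 ± 0.46 for STAT3 A_73_P276031 (adjusted p = 0.0708 and 0.0836), followed by 0.76 ± 0.36 for GATA3 A_73_106801. For these 3 probes the groups did not overlap, as for 43.8% of all probes. Both TNFRSF4 and STAT3 A_73_P276031 passed at the same sizes, 1.43 and 1.29, when only these 8 arrays were fitted (adjusted p = 0.0194 and 0.00665). TBX21 was at -0.20 ± 0.46. FOXP3 was fitted at -0.50 ± 0.60, but no day 0 array was above background for it, so no direction can be read. The unscaled means were 788 and 189 scanner units for TBX21 and 53.6 and 13.4 for FOXP3, in probiotic and day 0 blood. On the deposited signal after the software's detrending, TBX21 and FOXP3 instead passed as higher, by 2.66 and 1.84 (adjusted p = 0.00737 and 0.0436), FOXP3 again against a group not above background; that step had changed the signal of 3 of the 4 day 0 arrays and of no probiotic array.

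Adding LPS to blood of probiotic cows gave the study its positive control arrays, set here against the same probiotic arrays as in the comparisons above. None of the 7 probes passed (adjusted p from 0.120 to 1.000 by limma; 3 had an unadjusted p under 0.05, as did 6.24% of all probes), and 1.84% of all probes did, 1.71% higher and 0.123% lower. TBX21 differed by 0.14 ± 0.46 and GATA3 A_73_106801 by -0.00 ± 0.36. The largest member difference was 2.55 ± 0.72 for GATA3 A_73_P245891 (adjusted p = 0.120), which passed, at 3.34 (adjusted p = 0.00582), without probiotic replicate 1. That was the single probiotic array on which the probe was above background, so the 3.34 rests on background values. Against the other 3 probiotic arrays alone, the bound is at least 4.39-fold higher with LPS. The probiotic array left out stood at a scaled log2 level of -5.77, within the LPS range of -6.33 to -4.82. FOXP3 was at 0.88 ± 0.60. The other members were below 0: STAT3 at -0.93 ± 1.18 (A_73_104691) and -0.99 ± 0.46 (A_73_P276031), and TNFRSF4 at -1.04 ± 0.48. For STAT3 A_73_P276031 and TNFRSF4 the groups did not overlap, and 7.52% of all probes had no overlap. Without LPS replicate 4, where both were dimmest, STAT3 A_73_P276031 and TNFRSF4 also did not pass.

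Untreated blood at day 60 against day 0 asks what differed without the supplement, and it shares the untreated arrays with the first comparison and the day 0 arrays with the second. TBX21 was higher by 2.73 ± 0.46 (adjusted p = 0.000136), with unscaled means of 736 and 189 scanner units in untreated and day 0 blood. Under the scaling used, FOXP3 was at least 5.84-fold higher (limma adjusted p = 0.000106) and GATA3 by A_73_P245891 at least 10.6-fold higher (adjusted p = 1.13e-05). Both are given as bounds because no day 0 array was above background. The FOXP3 bound also averages in untreated replicate 2, which was not above background. Over the alternatives, the fitted log2 differences went as low as 1.61 for FOXP3 and 2.18 for GATA3 A_73_P245891. STAT3 A_73_P276031 was higher by 3.37 ± 0.46 (adjusted p = 2.08e-05). GATA3 A_73_106801 passed as lower (-1.34 ± 0.36, adjusted p = 0.00454), but turned to 0.90 with cyclic loess, 1.0 on the detrended signal and 2.19 in the authors' deposited table. The mean of both GATA3 probes was 2.18, which includes the higher A_73_P245891. STAT3 A_73_104691 and TNFRSF4 did not pass (-0.30 ± 1.18 and 1.06 ± 0.48, adjusted p = 0.844 and 0.0729). In all, 4 probes passed as higher, 1 as lower and 2 did not, where 56.4% of all probes passed (40.5% higher, 15.9% lower); the groups did not overlap for 6 of the 7 and for 54.6% of all probes. The median was 2.73 for the members and 0.97 for all probes. TBX21 did not pass when scaled to the 75th percentile of all probes (0.65, adjusted p = 0.223).

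**Figure D4:**
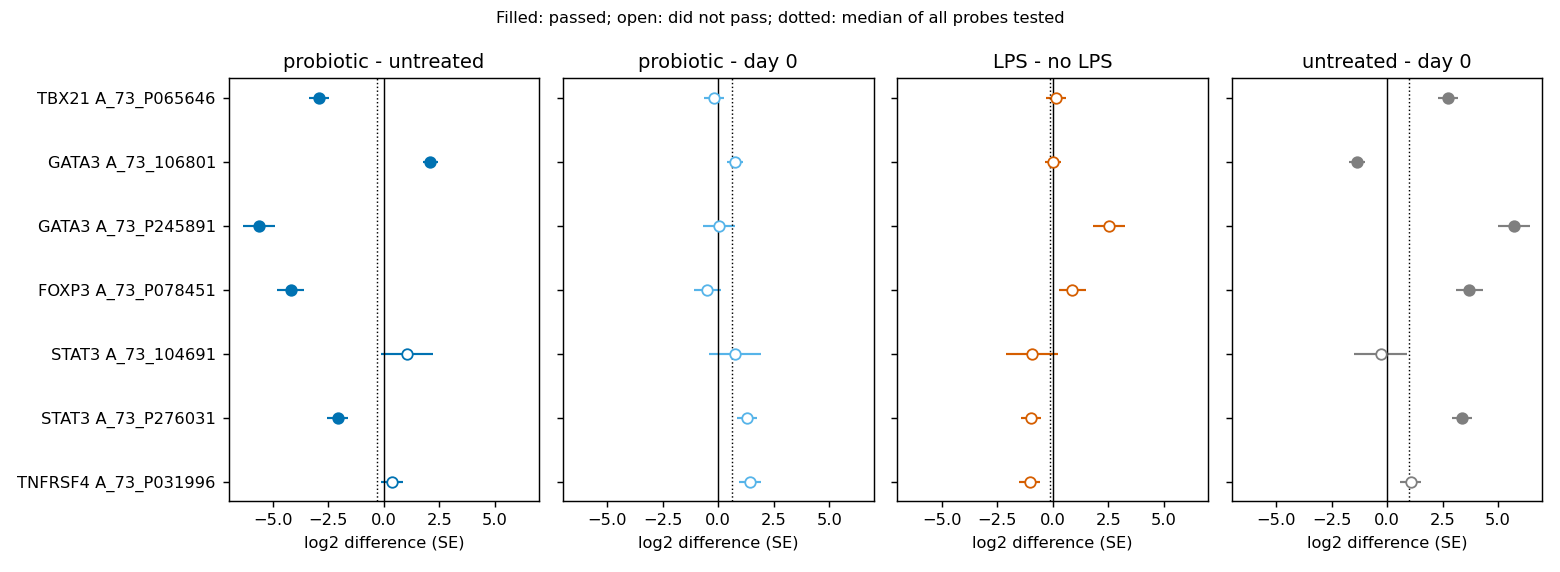
Log2 differences with SE (horizontal axis) of the 7 tested probes (rows) in the 4 comparisons (panels); filled points passed, open points did not, and the dotted line is the median of all probes tested. Filled points appear only in the panels that hold the untreated group, and the scalings under which GATA3 A_73_106801 turns sign are given in the text.

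Set side by side by lineage, the tested probes of probiotic against untreated blood read -2.93 for the Th1 factor TBX21, 2.10 and -5.65 for the Th2 factor GATA3, -4.20 for the regulatory factor FOXP3, and 1.04 and -2.09 for STAT3 of the Th17 fate. The range within GATA3 exceeded the range between the other factors, and the 2 GATA3 probes stood at opposite ends of the 6 values.

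Partner genes of these regulators were counted from 7 lists of cytokines, receptors, co-factors and signalling genes, 96 genes in all, of which 92 were on the array and 38 had a measurable probe; the brightest probe stood for a gene. A call was given a direction where each group had at least 1 array above background. Where a group was dim on all its arrays, a bound in the same direction was needed. In probiotic against untreated blood 3 list genes rose, 14 fell, 4 passed with no direction that could be read and 17 did not pass; over all 7322 named genes 50.4% passed with a direction (21.4% higher, 29% lower) under the same rule. The list median was -1.17, against -0.14 over the named genes, but it ranged from -1.56 with cyclic loess to 0.68 when scaled to the 75th percentile of all probes. Of the 17 calls with a direction, 12 had the same sign under all 7 other scalings.

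Most of the defining cytokines were not measurable: IFNG and IL2 (Th1), IL4, IL5 and IL13 (Th2), IL17A, IL17F, IL21 and IL22 (Th17), and CTLA4, a receptor of regulatory cells, had no probe above background on all arrays of any group. Of the Th1 list, RUNX3, a partner of T-bet, did not pass (-0.86 ± 1.17, adjusted p = 0.539), and CXCR3, a Th1 chemokine receptor, passed with no direction to read, since no untreated array was above background. Of the Th2 list, IL1RL1, the IL-33 receptor, rose by 3.21 ± 1.02 (limma adjusted p = 0.0131, and -1.71 with cyclic loess). Its untreated arrays were widely spread. The summed scaled level of IL1RL1 and IL4R was 0.19 to 14.3 on the untreated arrays and 3.08 to 7.70 on the probiotic arrays. IL4R, the other gene in that sum, was dim, with a mean log2 level of -5.75 in untreated and -8.17 in probiotic blood. Of the Th17 list, IRF4, a factor needed for Th17 and other effector fates, fell by 5.25 on the log2 scale (SE 0.63, adjusted p = 6.73e-06) and kept its sign under all 7 scalings.

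Of 12 measured regulatory genes, 1 rose, 6 fell, 2 passed with no direction and 3 did not pass. Among those that fell, EBI3 was above background on 1 untreated array and TGFB1 on 2, while both were on all 4 probiotic arrays. IL10, an inhibitory cytokine, fell by 3.86 (SE 0.55; adjusted p = 3.43e-05), with all arrays of both groups above background, though the authors' deposited table gave 0.83. ENTPD1 (CD39), an enzyme that breaks down extracellular ATP, fell by 3.34 (SE 0.37; adjusted p = 3.47e-06), and IKZF4 (Eos), a FOXP3 co-factor, fell by 3.48 (SE 0.76; adjusted p = 0.00107), each with the same sign under all 7 scalings. Most of those scalings use the same floor, and IKZF4 was above background on 4 probiotic but only 2 untreated arrays. Its difference thus rests partly on untreated values not above background. STAT5A, which carries IL-2 signals, was dim on all probiotic arrays and seen on 2 untreated arrays (limma adjusted p = 0.00269). Its bound, 9.96-fold lower, averages all 4 untreated arrays, also those not above background, so it is not a strict bound. FOXP1, a relative of FOXP3 that maintains T cell quiescence, was at least 2.21-fold higher (adjusted p = 0.000837), although its difference was only 0.01 in the scaling nearest to 0. IL2RA (CD25), the IL-2 receptor chain of regulatory cells, passed but was above background on 1 probiotic and no untreated array, so it has no direction.

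In the follicular and early fate list, LEF1, a factor of naive T cells, was at least 97.5-fold lower (adjusted p = 2.87e-05) and IL21R, the IL-21 receptor, fell by 5.33 (SE 1.04; adjusted p = 0.000433). ID2, an inhibitor of E proteins, was at least 3.45-fold higher (adjusted p = 1.59e-07), although the authors' deposited table gave -0.07. Of 12 JAK and SOCS genes, which relay and restrain cytokine signals, 4 fell and 8 did not pass, beside 29% of all named genes that passed as lower. PIAS1, a SUMO ligase that restrains cytokine signalling, fell by 3.34 (SE 0.84; adjusted p = 0.00315) with the same sign under all scalings. The feedback inhibitors SOCS1, SOCS2, SOCS3 and SOCS5 did not pass; SOCS3 and SOCS5 were above background on no untreated array, and SOCS1 and SOCS2 on 1, with differences of 0.73 ± 0.57 and -0.33 ± 0.57.

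**Figure D5:**
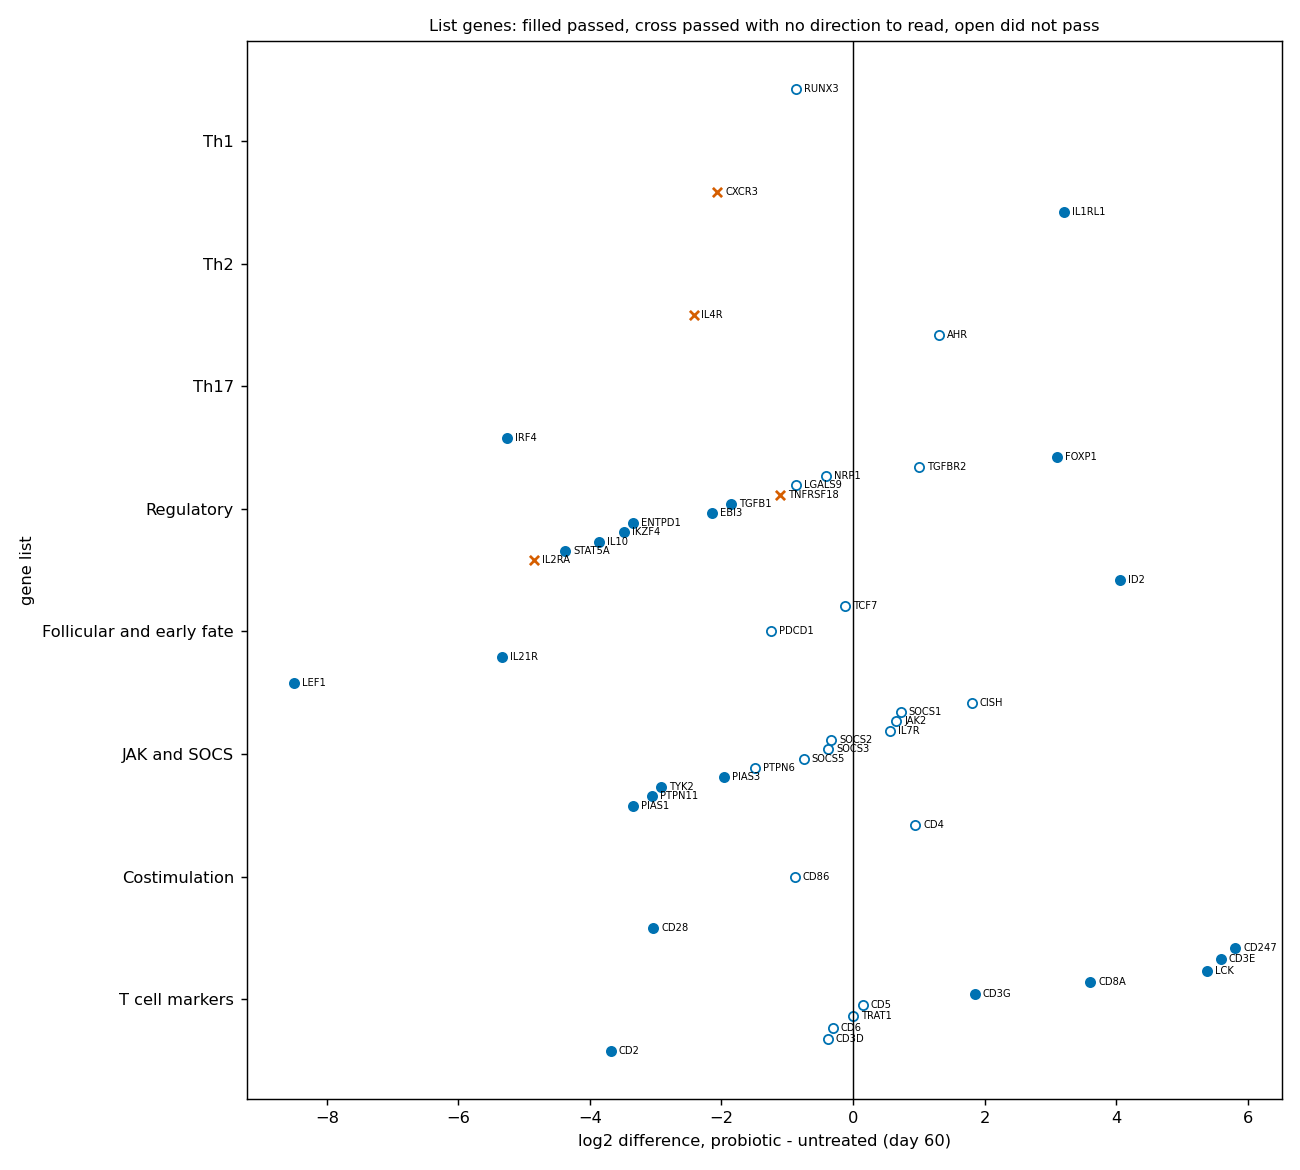
Log2 differences of probiotic minus untreated at day 60 (horizontal axis) for the 38 measured list genes and 10 T cell markers, by list (rows). Filled points passed with a direction, crosses passed without one and open points did not pass; of the pathway genes 3 filled points lie right of 0 and 14 left of it under the scaling used.

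In probiotic against day 0 blood, PTPN6 (SHP-1), a phosphatase that dampens cytokine receptors, rose by 3.72 ± 1.14 (adjusted p = 0.0488) and LEF1 was at least 5.62-fold lower (adjusted p = 0.0291; 0.81 in the authors' deposited table), and 36 list genes did not pass; the background over named genes was 8.93% (5.54% higher, 3.39% lower). With LPS 0 of 38 list genes passed by limma on the brightest probe, against 1.42% of named genes (1.3% higher, 0.123% lower), and 2 of the 38 had an unadjusted p under 0.05. TYK2, a kinase of the IL-12 receptor, had another probe that passed as higher with LPS, while its brightest probe stood at -1.10 ± 1.03. In probiotic against day 0 blood the other TYK2 probe passed as lower, while the brightest stood at 2.85 ± 1.03 and did not pass. In untreated against day 0 blood 17 rose, 3 fell, 7 had no direction and 11 did not pass, where 43.1% of named genes passed with a direction (28.8% higher, 14.4% lower). There TYK2 rose by 5.77 ± 1.03, PTPN6 by 5.21 ± 1.14, IL10 by 5.00 ± 0.55 and IRF4 by 4.96 ± 0.63, and IL21R was at least 12.4-fold higher (adjusted p from 3.32e-06 to 0.00122 over these 5 genes). IL1RL1 fell by 3.27 and ID2 was at least 1.77-fold lower (limma adjusted p = 0.0123 and 2.48e-06). IL1RL1 turned to 1.25 with cyclic loess and ID2 to 0.48 in the authors' deposited table. The summed level of IL1RL1 and the dim IL4R overlapped, at 0.19 to 14.3 on the untreated and 4.28 to 7.87 on the day 0 arrays.

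Markers of T cells passed only in the comparisons that hold the untreated group, and none passed in probiotic against day 0 blood or with LPS. Of 10 markers, 7 to 10 were above background on an LPS array, all 10 on every probiotic array, 1 to 2 on an untreated array and 3 to 9 on a day 0 array, and their summed scaled level was 1.53 to 4.23, 3.25 to 4.43, 0.49 to 1.12 and 1.28 to 2.83 on these groups' arrays. Sums of other cell types' markers were also lower on the untreated arrays: 6.88 to 9.05 in probiotic and 0.80 to 1.60 in untreated blood for neutrophils, 3.04 to 4.44 and 0.45 to 0.94 for monocytes, 1.1 to 1.64 and 0.27 to 0.80 for killer cells, and 1.58 to 2.33 and 0.05 to 0.14 for platelets. A sum is carried by its brightest genes, and single markers went both ways in probiotic against untreated blood. Of 7 neutrophil markers 3 rose and 2 fell, and of 5 monocyte markers 3 rose and 2 fell. Of 4 killer cell markers 1 rose and 1 fell (median log2 difference -0.54), and of 3 platelet markers 1 rose and 0 fell. The B cell sums, 2.24 to 3.04 and 2.94 to 6.95, and the erythroid sums, 16.7 to 24.8 and 1.78 to 18.7, overlapped. In probiotic against untreated blood CD247 and CD3E, chains of the T cell receptor complex, were at least 18.4-fold and 9.99-fold higher, and LCK, its kinase, at least 8.65-fold, while CD2 fell by 3.68 on the log2 scale (adjusted p from 3.51e-08 to 8.52e-05 over these 4 genes; 0.10 for CD2 in the authors' deposited table). Of the 10 T cell markers 5 rose, 1 fell and 4 did not pass, beside the 50.4% of named genes called with a direction, and in the authors' deposited table their median was 0.007. Of the 10, 7 were above background on no untreated array, CD3D and CD5 on 1 and CD2 on all 4, where TBX21 was on all 4 and FOXP3 on 3. The part of cell content in the members' differences was not tested.

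The genes whose log2 level followed each member most closely over the 16 arrays, out of 9843 candidate probes, were GAL3ST3 (Pearson r = 0.988) and SF1 (0.987) for TBX21, STXBP2 (0.959) and EEF1A1 (0.952) for GATA3 A_73_106801, and MRGPRF (0.980) and CD276 (0.979) for FOXP3. For STAT3 A_73_104691 they were PGAP3 (0.947) and FAM132A (0.920), and for TNFRSF4 ARIH2 (0.915) and METTL9 (0.914). All points share the arrays' scaling and the group structure, so these values are a description and carry no p.

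In the authors' deposited table, which holds 1 log2 value per probe and group, STAT4 stood at 0.38 for LPS, 3.44 for probiotic, 0.30 for untreated and 0.07 for day 0. Its high probiotic value sits in the group whose replicate 1 held the outlier-marked spot of 98914 scanner units. The deposited table gave TBX21 as -1.12, 0.39, 0.57 and -6.20 in the same order of groups, and FOXP3 as -0.18, 0.38, 1.26 and -5.97. The centring of that table is not given in the sources used here.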

How the data were processed

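The members and gene lists were chosen with earlier results of these data known. Arrays were read with Agilent Feature Extraction 10.10.1.1, per the submitters' processing notes. Per the file headers, the deposited net signal of a spot is an intensity from which the software had subtracted background, and it was not scaled between arrays by the authors. The authors also deposited a table of log2 averages per group; its steps are not given in the sources used here.

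Net signal before the software's detrending was used, because detrending had altered day 0 replicates 2, 3 and 4 and LPS replicate 4. Control spots and outlier-marked spots were left out and spots of a probe averaged. Each array was divided by the 75th percentile over the 671 probes well above background on all 16 arrays, values under a floor (1st percentile of significantly positive spots) were raised to it, and log2 was taken. The 12197 probes above background on all 4 arrays of at least 1 group were tested in 1 fit of 16 arrays with lmFit and eBayes of limma 3.58.1 (R 4.3.3), two-sided, with Benjamini-Hochberg adjustment; the step was tested on simulated data. Where a probe was dim on every array of a group, a bound replaced the fold: each dim array took the larger of the probe's signal and the lowest signal well above background there. The other group entered by the mean of all its arrays, also those not above background. Such a bound holds only under the scaling used. The rule that a call with a group dim on all its arrays needs such a bound to be given a direction was chosen after the data were seen. Calls with at least 1 array above background in each group needed none. Named list genes were those with a passing probe, at most 12 per comparison by size of difference; the rest were counted, and genes named beyond these (such as CXCR3, RUNX3, the SOCS genes and T cell markers) were chosen after their values were seen. Gene names came from a bovine RefSeq table by accession for 26832 of 43653 probe names and from the file's symbol for 8043, and 8778 had none. With 4 arrays per group, their number limits the precision. Alternatives covered scaling, background, detrending, floor, filter, arrays in the fit, replicate number as a block, averaging of probes, and each array left out. Figures were drawn with matplotlib 3.10.9.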

Additional observations from a re-analysis of the deposited data

Results flagged for a closer look

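A sample far from the rest of its group (Dixon's test at the 95% level, on net signal before scaling) was found in 14 of 68 sets of 4 arrays of a member probe. Chance gives about 1 in 20, but differences in array brightness were not removed before the test. The scaling value was 1797 on LPS replicate 4 and 9824 to 11190 on the other LPS arrays. After scaling, GATA3 A_73_106801 was highest of its group on LPS replicate 4 (log2 level -1.59, others -2.04 to -1.78). On LPS replicate 4 the low values were 597 scanner units for GATA3 A_73_106801, 7.93 for STAT3 A_73_P276031, 43.2 for TNFRSF4 and -4.41 for FOXP3 A_73_110589, while STAT3 A_73_P053706 and STAT4 were high there at 28.1 and 41.6. LPS replicate 1 was high for FOXP3 A_73_P078451, at 197. On the probiotic arrays the high values were 219 for GATA3 A_73_P245891 and 98914 for STAT4, both on replicate 1, 59.4 for FOXP3 A_73_P078451 on replicate 2, and 52.2 for STAT3 A_73_P411291 on replicate 3. On the untreated arrays TNFRSF4 was high on replicate 1 at 206. On the day 0 arrays STAT3 A_73_104691 was low on replicate 4 at 5.83, and STAT6 was high on replicate 1 at 10.5.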

How the results depend on the processing

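Of the member values recomputed, 361 kept their side of the threshold under another setting, 19 newly passed, 16 no longer passed and 14 reversed, and with 1 array left out 223 kept theirs and 1 newly passed; 53 of all 634 changed sign without passing in either fit. In probiotic against untreated blood the reversed values were -1.0 with cyclic loess, -1.77 as the mean of a gene's probes and -0.35 in the authors' table for GATA3 A_73_106801, and -1.95 with cyclic loess for TNFRSF4. In probiotic against day 0 blood they were, on the detrended signal, 2.66 for TBX21, 1.84 for FOXP3 and -3.07 for GATA3 A_73_P245891, and 6.60 for TBX21 and 6.35 for FOXP3 in the authors' table. With LPS TBX21 was -1.51 in the authors' table. In untreated against day 0 blood GATA3 A_73_106801 was 0.90 with cyclic loess, 1.0 on the detrended signal, 2.18 as the gene mean and 2.19 in the authors' table. The gene means, -1.77 and 2.18, average this probe with GATA3 A_73_P245891, so they are not values of A_73_106801 alone. The cause was not tested.

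Counts of passing probes were 7222, 1346, 224 and 6879 for probiotic against untreated, probiotic against day 0, LPS and untreated against day 0. Without a filter on dim probes they were 37154, 15859, 577 and 35484, on probes above background everywhere 461, 34, 6 and 448 (fewer probes tested), and by fold alone they were 2410, 8410 and 8214 in the authors' table for probiotic against untreated, probiotic against day 0 and LPS. Probiotic against day 0 gave 6595 on the detrended signal, 824 without the detrended arrays, 353 with normexp, 705 with a higher floor, 2622 with its 8 arrays alone, and 592 to 1745 with 1 array left out. LPS gave 116 scaled to the median, 82 by quantiles, 38 with normexp and 147 with its 8 arrays alone, and untreated against day 0 gave 4266 scaled to the median. Probiotic against untreated split into 2895 higher and 4327 lower, but 6062 and 2144 when scaled to the 75th percentile of all probes, 4107 and 2071 to the median, 6073 and 2316 by quantiles, 1123 and 4517 with cyclic loess, 4453 and 2271 with normexp, and 1279 and 7278 with a higher floor. Probiotic against day 0 split into 871 higher and 475 lower, but 429 and 551 scaled to the 75th percentile of all probes, 322 and 630 with cyclic loess, and 170 and 817 with row-block medians subtracted. Untreated against day 0 split into 4940 higher and 1939 lower, but 1731 and 5070 scaled to the 75th percentile of all probes, 2224 and 4752 by quantiles, 2100 and 3496 with normexp, and 3832 and 820 with cyclic loess. By the authors' table LPS split into 927 and 7287, against 209 and 15 with the scaling used. Arrays with the same replicate number had correlations between -0.22 and 0.61 (median -0.01, 24 pairs) once group means were removed. These values do not settle whether the numbers pair arrays. Replicate 4 had the lowest scaling value of the LPS (1797), probiotic (7120) and day 0 (777) arrays, but not of the untreated arrays. With a replicate block the counts were 7416, 1289, 243 and 7052. Counting only calls with a direction to read, chosen after the data were seen, gave 5796, 1230, 224 and 5022. Leaving out day 0 replicate 4 and probiotic replicate 4, which lacked the spike-in ladder, was also chosen then and gave 1471 for probiotic against day 0 and 211 for LPS. Low signal on the untreated and day 0 arrays limits all comparisons that hold them.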
